A study of Rattus norvegicus with 3 samples.

Results

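The myosin probe sets of the rat medullary thick ascending limb (mTAL) were examined, that is the array features whose only annotated gene is a class II heavy chain (Myh), a light chain (Myl) or an unconventional myosin with a letter in its name (Myo). They numbered 52 probe sets of 36 genes, out of 31042 probe sets without controls and 20826 with 1 annotated gene. Of them, 19 were Myh probe sets of 12 genes, 10 were Myl probe sets of 9 genes and 23 were Myo probe sets of 15 genes. The members were chosen by gene symbol, but the family was taken up because the Myh1 probe sets were bright, so the Myh1 signals are given as a description with no test. The mTAL is the outer medullary part of the kidney tubule that reabsorbs sodium chloride and is nearly impermeable to water. All 3 arrays belong to 1 group of male Sprague-Dawley rats aged 7 to 8 weeks, each injected 30 min before death with the loop diuretic furosemide (1 mg) and with heparin (250 u). The kidneys were perfused with collagenase and hyaluronidase, the outer medulla was digested for 60 min, and the tubules were taken from a 33.3% Percoll gradient. No label says whether an array stands for 1 rat or a pool. How much of the spread between replicates lies between rats and how much is technical therefore cannot be told.

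Myosins are motor proteins that bind actin filaments and use ATP to pull on them. Class II myosins pair heavy chains that carry the motor with essential and regulatory light chains, and they assemble into the contractile filaments of muscle and, as nonmuscle forms, into the actin belts and bundles of epithelial cells. Unconventional myosins do not form such filaments. They link actin to membranes and cargo, for example recycling endosomes, microvilli and the cell cortex, and most use calmodulin or related proteins as light chains.

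The heavy chain genes of fast muscle lie side by side on rat chromosome 10, in the order Myh3, Myh2, Myh1, Myh4, Myh8 and Myh13 in the RefSeq table of the assembly GRCr8. The 250 bases before the annotated start of Myh1 and of its neighbours on either side are shown because Myh1 had bright probe sets and the neighbours did not. The sequences come from RefSeq, build GRCr8, are written 5′ to 3′, and lie at chr10:52384662-52384911 for Myh1, chr10:52355489-52355738 for Myh2 and chr10:52421898-52422147 for Myh4, all on the plus strand. Capitals mark each TATAAA on either strand and the longest run that the 3 promoters share.
Myh1: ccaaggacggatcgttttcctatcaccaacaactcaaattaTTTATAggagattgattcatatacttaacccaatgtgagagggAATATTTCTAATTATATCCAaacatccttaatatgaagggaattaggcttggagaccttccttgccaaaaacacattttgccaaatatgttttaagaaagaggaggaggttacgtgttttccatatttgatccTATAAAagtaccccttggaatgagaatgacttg
Myh2: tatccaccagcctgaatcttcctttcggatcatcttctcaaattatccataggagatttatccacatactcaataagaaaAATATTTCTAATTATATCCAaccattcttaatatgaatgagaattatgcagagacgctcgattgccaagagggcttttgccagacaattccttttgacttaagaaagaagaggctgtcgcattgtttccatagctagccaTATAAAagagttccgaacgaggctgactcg
Myh4: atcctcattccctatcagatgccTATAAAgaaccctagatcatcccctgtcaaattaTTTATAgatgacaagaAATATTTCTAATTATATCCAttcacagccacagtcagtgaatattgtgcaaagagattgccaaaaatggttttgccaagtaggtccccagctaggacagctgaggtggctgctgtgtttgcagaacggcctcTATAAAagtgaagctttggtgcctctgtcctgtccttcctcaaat
The shared run is 20 bases long and begins 166, 170 and 177 bases before the start of Myh1, Myh2 and Myh4. On either strand it was found in 5 of 33469 promoter windows of 250 bases. The 3 windows shown are among the 5 because the run was taken from them, so the count does not measure how special it is. A TATAAA on the gene's strand begins 33, 30 and 45 bases before the start, and 12.9% of all windows hold a TATAAA on either strand.

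For contrast, the same window is given for Myh10, a nonmuscle heavy chain at chr10:53893014-53893263 on the plus strand, and Myl12b, a nonmuscle regulatory light chain at chr9:118334811-118335060 on the minus strand. Capitals mark each GGGCGG on either strand; in Myl12b, where it reads CCGCCC on the gene's strand, the matches share 1 base.
Myh10: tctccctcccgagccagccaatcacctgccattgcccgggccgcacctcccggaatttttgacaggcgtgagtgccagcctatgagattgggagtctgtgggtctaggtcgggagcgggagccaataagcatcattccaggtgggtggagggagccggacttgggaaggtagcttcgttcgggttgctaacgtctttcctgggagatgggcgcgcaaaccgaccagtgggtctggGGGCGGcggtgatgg
Myl12b: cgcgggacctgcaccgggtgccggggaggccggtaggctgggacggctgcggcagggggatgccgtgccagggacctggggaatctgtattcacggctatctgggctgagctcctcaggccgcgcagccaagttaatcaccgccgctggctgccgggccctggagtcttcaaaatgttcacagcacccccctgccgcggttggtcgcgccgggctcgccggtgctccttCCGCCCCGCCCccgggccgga
The share of G and C was 62.0% in Myh10 and 71.6% in Myl12b, beside 35.6%, 38.4% and 42.0% in Myh1, Myh2 and Myh4, and a median of 51.2% over all windows. Neither window holds a TATAAA, and 30.5% of all windows hold a GGGCGG. Of the 34 windows of member genes 8 hold a TATAAA and 14 a GGGCGG. Myh10 and Myl12b are examples and do not stand for the other nonmuscle members. A match to these letters describes the window and is not a measured binding site. Of the 36 genes, 31 had a promoter entry, and Myh11, Myl2, Myl9, Myo1d and Myo7b had none.

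Each value is the signal of a probe set on 1 array, on a linear scale. A probe set was called above background when its log2 signal lay above the array's cutoff by limma (one-sided, adjusted p under 0.05 over all probe sets). The cutoff was the 95th percentile of 86 probe sets of 72 genes known from other tissues, a list that held no muscle gene and no myosin. It stood at a signal of 372, 294 and 330 on replicates 1, 2 and 3. Of those 72 genes 3 were themselves called, and the brightest were Cela1 (1800.1 ± 324), Krt10 and Mbp. Because hybridisation strength varies from one probe set to another, the signals do not rank transcripts by abundance. The arrays shared an overall scale, with a trimmed mean signal between 1000.33 and 1000.35. All 15 measured markers of the thick limb were called, led by Umod (57036 ± 8031, SD, n = 3 throughout), Ppp1r1a (49138 ± 4535) and Egf (45192 ± 905). The defining markers of the labelled tissue were thus present.

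Of the 47 myosin probe sets other than those of Myh1 13, or 27.7%, were called above background, beside 38.2% of all probe sets and 45.8% of those with 1 annotated gene. The median of their log2 signal minus the cutoff was -1.23, against -0.35 over all probe sets and 0.36 over those with 1 gene. Both the share and the median were thus lower for the myosins than for the array. The calls came from 11 genes: Myh9, Myh10, Myl12a, Myl12b, Myo1c, Myo1d, Myo1e, Myo5b, Myo5c, Myo9b and Myo18a. By family they were 2 of 14 Myh, 2 of 10 Myl and 9 of 23 Myo probe sets. The 5 Myh1 probe sets also passed the threshold, which makes 7 of 19 Myh and 18 of all 52, or 34.6%, but since their brightness led to the choice of the family nothing is read from these counts. The limma adjusted p of these 13, which lay above the cutoff on 3 of 3 arrays, ran from 0.000267 to 0.00374. Among the 34 probe sets not called, 26 were below the cutoff on every array, with mean signals from 8.86 to 173.6. The other 8 were above it on 1 or 2 arrays, and a gene that was not called may still be expressed at a lower level.

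**Figure D1:**
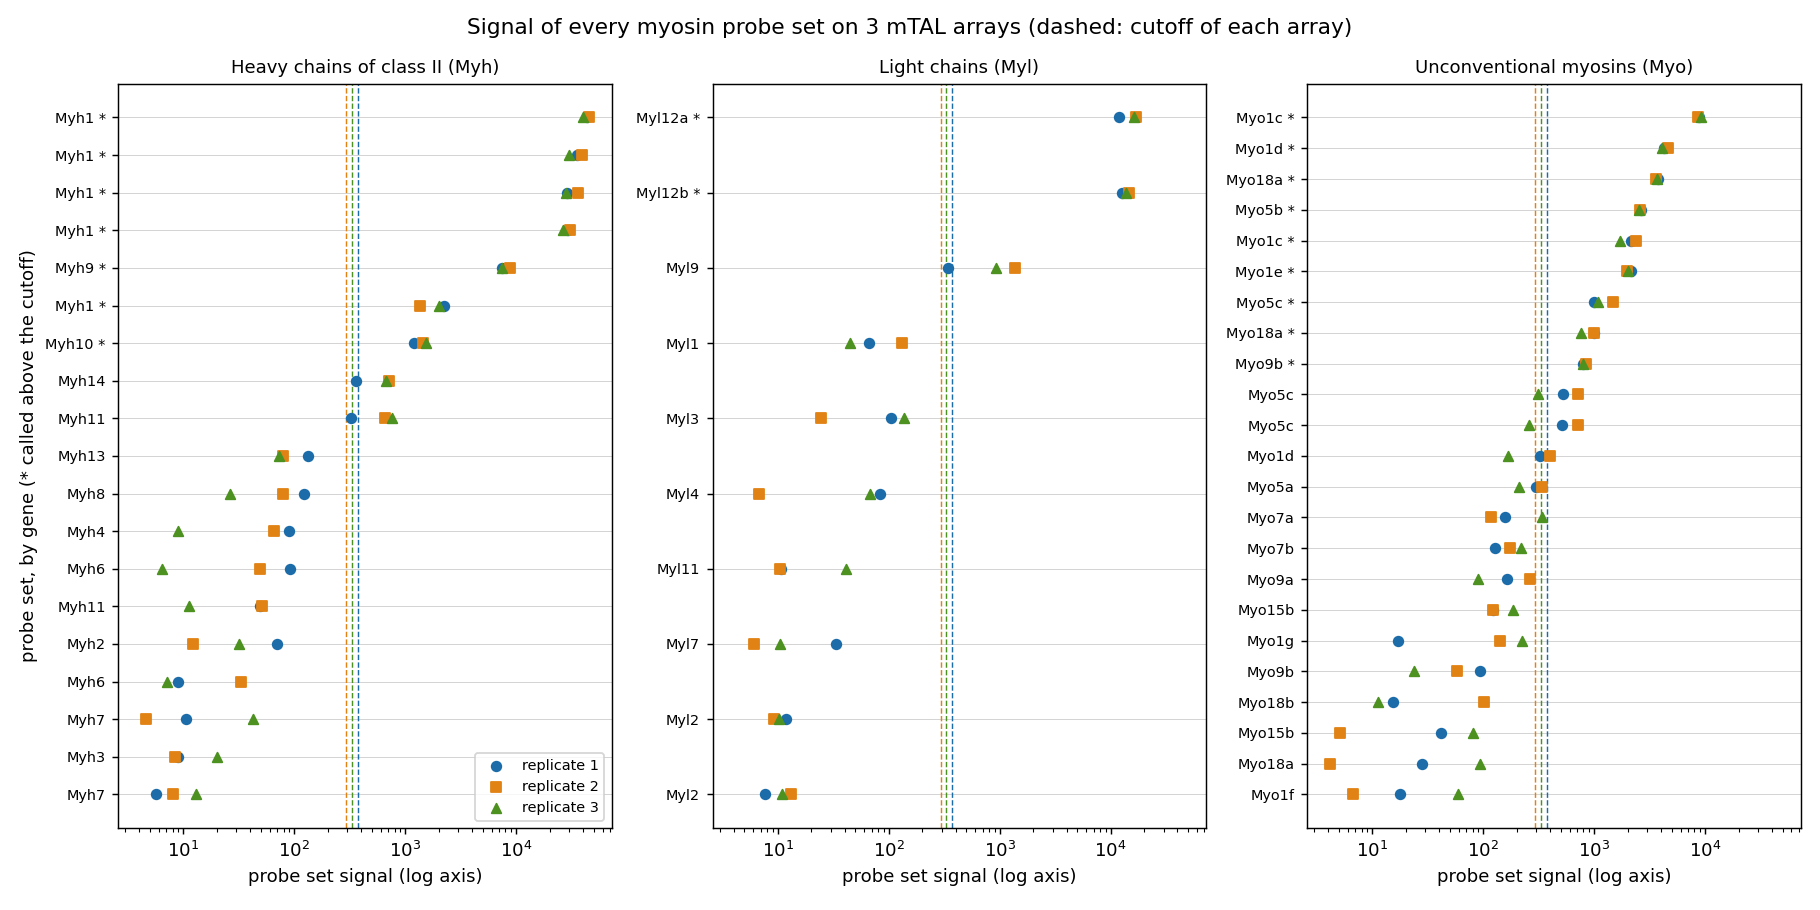
Signal of each of the 52 myosin probe sets (log axis) on replicates 1, 2 and 3, with 1 row per probe set ordered by mean, a panel for each of Myh, Myl and Myo, and the cutoff of each array as a dashed line; an asterisk marks the 18 past the threshold, Myh1 included. The Myh1 rows, all but 1 of them above Myh9, lead the heavy chains, Myl12a and Myl12b stand far to the right of the other light chains, and the Myo rows form a continuous series from Myo1c at 8889 down to Myo1f at 28.1.

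Myh1 encodes the fast type IIx heavy chain of skeletal muscle. Its probe set 1377720_x_at had signals of 43678, 45438 and 39684 on replicates 1, 2 and 3 (42933 ± 2949). Probe set 1383161_a_at gave 35309, 39226 and 29736 (34757 ± 4769), and 1377719_a_at gave 28746, 36123 and 28203 (31024 ± 4424). The values were high on each array, and the highest of each probe set was on replicate 2. Probe set 1383162_at gave 29225, 30772 and 26271 (28756 ± 2287). By mean log2 signal these 4 took places 40, 97, 129 and 155 of 31042. The fifth, 1377114_at, was lower, with 2219, 1347 and 2032 (1866 ± 459), place 5446, and a highest value on replicate 1. The probe sets of Myh1 therefore spanned a 23.5-fold range of geometric means.

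The annotation behind these probe sets limits what they can be said to measure. The 5 come from 3 source sequences, none of which is a RefSeq transcript. This is not particular to Myh1, since of the other 47 members only 11 have a RefSeq transcript as their source. In Affymetrix names the ending _x_at marks a set with some probes that can also match unrelated sequences, and _a_at marks a set that matches several transcripts of a gene. A further probe set, which the annotation gives to Myh1 together with Myh2 and Myh8, had signals of 68.7, 7.63 and 38.7 and was not called. It is no member, because it names several genes. Whether the bright probe sets measure Myh1 transcripts was not tested.

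The other heavy chains of striated muscle were at the bottom of the range. They were Myh2 (fast type IIa), Myh4 (fast type IIb), Myh8 (perinatal), Myh3 (embryonic), Myh13 (extraocular) and the cardiac chains Myh6 and Myh7. Their 9 probe sets had values from 4.62 to 133 on single arrays, and 0 of 9 lay above the cutoff on any array. Myh2 had signals of 69.9, 12.2 and 31.5, Myh4 had 90.2, 65.6 and 8.98, Myh8 had 121, 79.5 and 26.3, and Myh13 had 133, 79.0 and 72.8. In these 4 genes replicate 1 was the highest, at levels below the cutoff. The cardiac chain Myh6 had 91.8, 49.0 and 6.41 on 1368093_at and 8.97, 32.9 and 7.08 on 1387049_at, and the brighter Myh7 probe set, 1386993_at, had 10.5, 4.62 and 42.3. Neither probe set of Myh6 repeated the order of the arrays in the other. The lowest Myh probe sets by mean log2 signal were 1367928_at of Myh7, with 5.66, 8.02 and 12.9, and that of Myh3, with 8.87, 8.35 and 20.2. The neighbours of Myh1 on the chromosome thus had means from 12.5 for Myh3 to 95.0 for Myh13.

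Genes that striated muscle expresses with its heavy chains were low as well. Of 38 measured sarcomere and muscle genes 1 was called, beside 53.9% of all genes (with the brightest probe set standing for a gene), and their median log2 signal minus the cutoff was -3.02, against 1.005 for all genes. The called gene was Smpx, a small muscle protein gene, with 10500.4, 11161 and 8219 (9960.2 ± 1544). Next came Mybpc2 (388 ± 119.5) and Tnni2 (337 ± 112), which were not called. The skeletal actin Acta1 (36.8 ± 31.4), the titin gene Ttn (46.4 ± 13.7), the creatine kinase Ckm (106.6 ± 79.6) and the muscle regulators Myod1 (12.7 ± 9.42) and Myog (195.7 ± 69.9) were not called either. The summed signal of the list was 13294, 14231 and 11734 on replicates 1, 2 and 3, most of it from Smpx. A part of muscle cells in the Myh1 signal was not tested beyond these values.

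**Figure D2:**
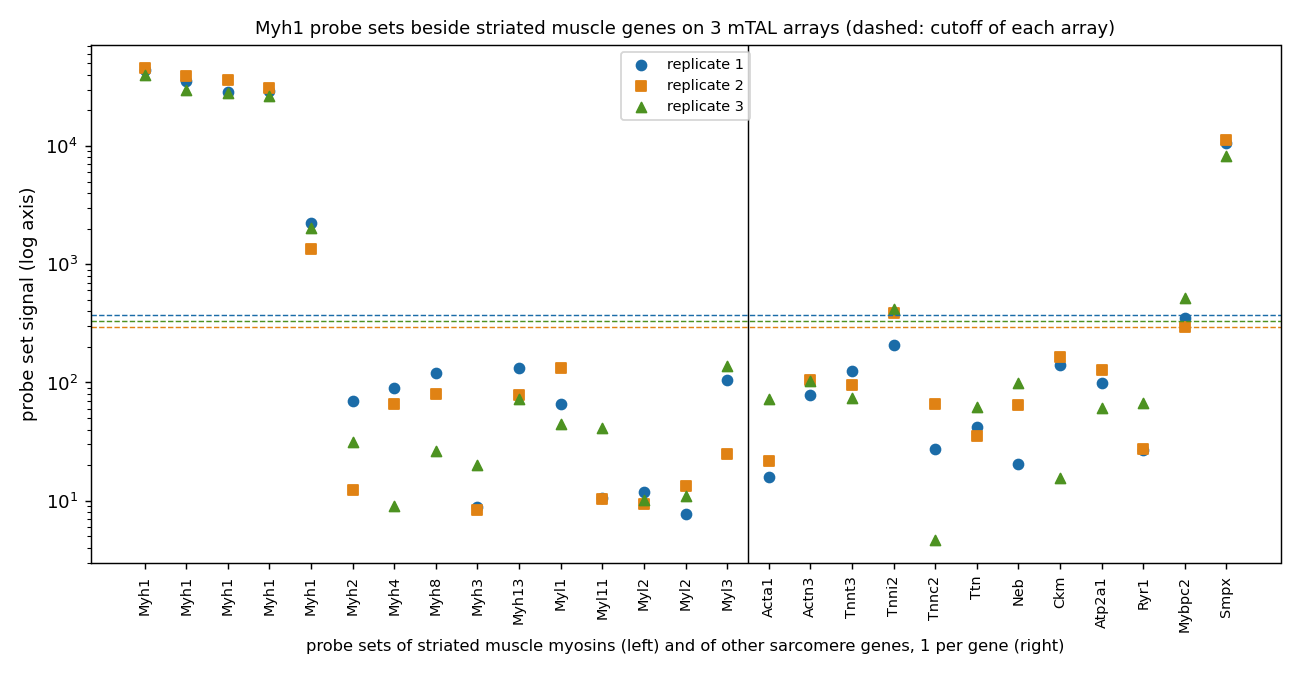
Signal (log axis) on replicates 1, 2 and 3 of the Myh1 probe sets and of those of Myh2, Myh4, Myh8, Myh3, Myh13, Myl1, Myl11, Myl2 and Myl3, left of the line, and of 12 other sarcomere genes, right of it, with the cutoff of each array as a dashed line. Of the Myh1 probe sets 4 lie between 26271 and 45438, the other muscle myosins at or below 137, and Smpx is the only sarcomere gene shown that lies far above the cutoff.

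Of the nonmuscle heavy chains Myh9 and Myh10 were called and Myh14 was not. Myh9 encodes nonmuscle myosin IIA, mutations of which cause a human disorder of platelets, hearing and kidney. Its probe set 1371725_at had signals of 7482, 8779 and 7506 (7923 ± 742), 4.58 log2 units above the cutoff (limma adjusted p = 0.000285). A further and dimmer probe set with the symbol Myh9, not counted as a member, is given under the other observations. Myh10, for nonmuscle myosin IIB, had 1199, 1454 and 1527 (1393 ± 172), 2.07 above it (limma adjusted p = 0.00154). Both genes were above the cutoff on each array, and their SD of log2 signal was 0.13 and 0.18. Myh14, for nonmuscle myosin IIC, had 357, 709 and 677 (581 ± 195). It was below the cutoff on replicate 1 and above it on the others (limma adjusted p = 0.11).

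Myh11 is the heavy chain of smooth muscle. Its probe set 1370896_a_at had signals of 324, 659 and 754 (579 ± 226), below the cutoff on replicate 1 and above it on the others, and it was not called (limma adjusted p = 0.15). The second probe set, 1381219_at, had 49.1, 51.2 and 11.3 (37.2 ± 22.5) and was below the cutoff on every array. Its highest and lowest replicates were not those of the first probe set.

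Among the light chains, the regulatory chains of nonmuscle myosin were called. Phosphorylation of these chains switches class II myosin on. Myl12a had signals of 11878, 16939.5 and 16062 (14959.8 ± 2705), 5.48 log2 units above the cutoff. Myl12b had 12588, 14668 and 13614 (13623 ± 1040.03), 5.36 above it. For both genes the lowest value was on replicate 1, and every value was far above the cutoff. The limma adjusted p was 0.000287 for Myl12a and 0.000267 for Myl12b. The genes are near-identical neighbours on chromosome 9 and have pseudogenes in the RefSeq table, so their probe sets may share transcripts.

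Myl9, the regulatory light chain best known from smooth muscle, differed most between arrays among the members with a mean above the cutoff. Its signals were 340.2, 1377 and 926 (881 ± 519.9), with the value on replicate 1 below the cutoff and the others above it. The range was 4.05-fold, and 98.7% of the 3686 probe sets within 0.5 log2 units of its mean had a smaller SD. It was not called (limma adjusted p = 0.11).

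The light chains of striated muscle were not called. Myl1, an essential chain of fast muscle, had 65.7, 131 and 44.9 (80.7 ± 45.1), and Myl3, an essential chain of slow and ventricular muscle, had 105, 24.7 and 137 (88.9 ± 58.0). Together with Myl2 and Myl7, regulatory chains of the heart's ventricle and atrium, Myl4, an essential chain of the atrium, and Myl11, a regulatory chain of fast muscle, they made up 7 probe sets, with means from 10.5 to 88.9. Myl4 had 83.9, 6.74 and 68.2, Myl7 had 33.6, 6.05 and 10.5, and Myl11 had 10.6, 10.4 and 41.4, so that no array was the highest for all of them. The lowest were the 2 probe sets of Myl2, with 11.9, 9.32 and 10.2 for 1388200_at and 7.67, 13.2 and 10.9 for 1388293_at. None of these values came near the cutoff, and the fast muscle light chains were therefore low where 4 Myh1 probe sets were bright.

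Class I myosins are single-headed motors that tether membranes to the actin cortex, and those of epithelia had signals above the cutoff. Myo1c, known from the basolateral and cortical membrane of epithelial cells, had 8858, 8611 and 9197 (8889 ± 294) on probe set 1369631_at. Its probe set 1387654_at had 2158, 2385 and 1695 (2079.5 ± 352). Both were called, 4.75 and 2.64 log2 units above the cutoff, with their lowest values on different replicates. Myo1e, which in podocytes is needed for the filtration barrier, had 2168, 1972 and 2017 (2052 ± 102) and was called, 2.63 above the cutoff.

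Myo1d, a class I myosin of epithelial cells, had probe sets that were called differently. Probe set 1388917_at had signals of 4243, 4645 and 4059 (4316 ± 299.6) and was called, whereas 1369779_at had 325, 403 and 166 (298 ± 121) and was not. In both the highest value was on replicate 2 and the lowest on replicate 3. The class I myosins of blood cells were not called. Myo1f had 17.7, 6.76 and 59.8 (28.1 ± 27.99), the lowest mean of the Myo group. Myo1g had 17.1, 141 and 224 (127 ± 104), lowest on replicate 1. Of 17 leukocyte markers 2 were called, led by Lyz2 (1661 ± 776) and Laptm5 (884 ± 266), with Cd14 (434 ± 213) next, and their summed signal was 2881, 5505 and 4819.8 on replicates 1, 2 and 3. Its part in the Myo1g values was not tested.

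Class V myosins carry vesicles along actin. Myo5b, which with Rab11 returns recycling endosomes to the apical membrane of epithelia, had signals of 2661, 2592 and 2546 (2599.7 ± 57.7). It was called, 2.97 log2 units above the cutoff, and of the 2701 probe sets within 0.5 log2 units of its mean 3.37% had a smaller SD. Myo5a, known from neurons and pigment cells, had 296, 335 and 209 (279.9 ± 64.7), was above the cutoff on 1 array and was not called.

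Myo5c, a class V myosin of exocrine and other epithelia, had 3 probe sets. Probe set 1374122_at had 1004, 1462 and 1078 (1182 ± 246) and was called, 1.82 log2 units above the cutoff. Probe sets 1380067_at, with 527, 708 and 309.8 (515 ± 199), and 1391018_at, with 514, 709.6 and 259 (494 ± 226), were not called. All 3 were highest on replicate 2, and those not called fell below the cutoff on replicate 3.

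The class VII myosins Myo7a, of hair cells and photoreceptors, and Myo7b, of the brush border of proximal tubule and intestine, were not called. Myo7b had 128, 174 and 218 (173.6 ± 45.2), below the cutoff on every array, and Myo7a had 157, 118 and 339.7 (205 ± 118), above it on replicate 3 alone. In the same arrays 3 of 23 proximal tubule markers were called, led by mean log2 signal by Hao2 (7724 ± 4140), Kap (11142 ± 13412, not called) and Ggt1 (3134 ± 2546), and their summed signal was 8378, 27990 and 83730.0 on replicates 1, 2 and 3. Replicate 3 also gave the highest Myo7b and Myo7a values. The part of proximal tubule cells in them was not tested, and in bulk RNA fewer cells of a type and less RNA per cell cannot be told apart.

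Of the class IX myosins Myo9b was called on 1 of its probe sets. Probe set 1387866_at had 799.7, 838 and 799 (812 ± 22.0), and 1375169_at had 93.1, 58.2 and 23.7 (58.3 ± 34.7). Myo9a had 164, 264 and 88.96 (172 ± 88.0) and was not called. The bright Myo9b probe set lay only 1.30 log2 units above the cutoff, yet on every array, with an SD of 0.04.

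Myo18a, a myosin with little motor activity of its own that is known from the Golgi and from actin bundles, was called on 2 of 3 probe sets. Probe set 1371866_at had 3719.7, 3593 and 3716 (3676 ± 71.8), with an SD of 0.03 log2 units, the smallest of the called members. Probe set 1382805_at had 1002, 987 and 753 (914 ± 139), and 1380722_at had 27.8, 4.12 and 93.4 (41.8 ± 46.3) and was not called. Replicate 3 was thus the lowest for one of these probe sets and the highest for another. The muscle relative Myo18b had 15.5, 102 and 11.3 (43.1 ± 51.5) and was not called. Myo15b, of class XV, had 122, 122.5 and 186 (143.6 ± 36.5) on 1373330_at and 41.9, 5.09 and 80.8 (42.6 ± 37.9) on 1395968_at. Both were below the cutoff on every array and highest on replicate 3.

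Several probe sets of 1 gene often disagreed in level. Of the 36 genes 11 had more than 1 member probe set, and in 9 of these the geometric means differed by over 1 log2 unit. The probe sets of 4 genes, Myo18a, Myo1d, Myo5c and Myo9b, were called differently. Among genes whose probe sets all had means above the cutoff, the range was 23.5-fold for Myh1, 4.32-fold for Myo1c and 2.56-fold for Myo5c. The other ranges include probe sets with means below the cutoff, whose signals do not give an exact fold. The cause of the disagreement was not tested.

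**Figure D3:**
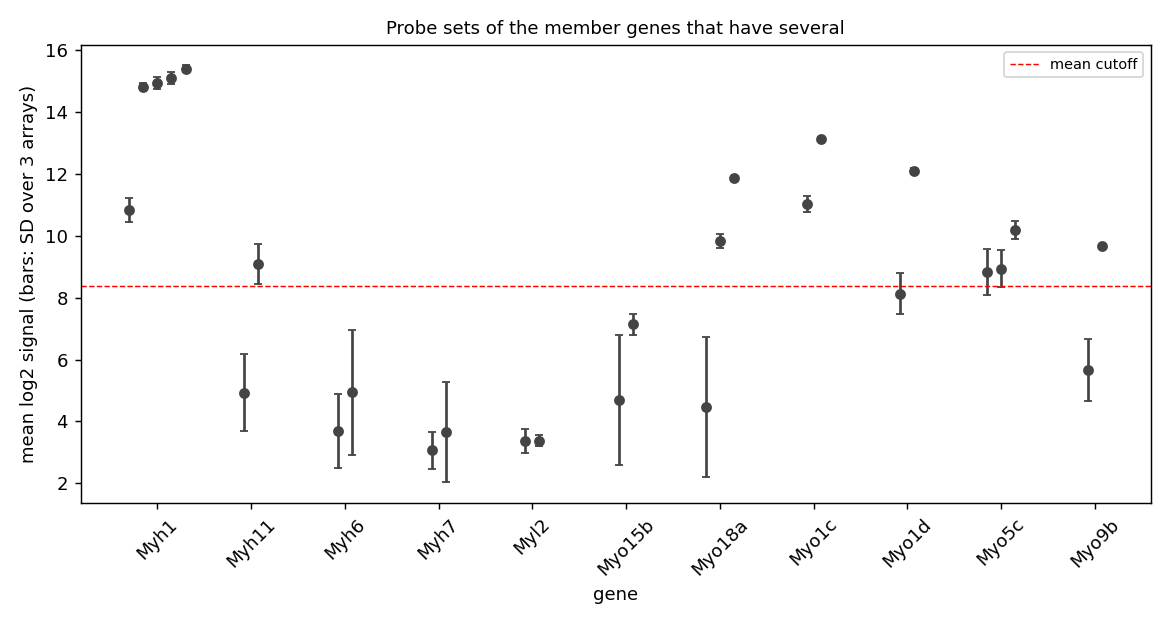
Mean log2 signal of each probe set of the 11 member genes with more than 1, with bars for the SD over the 3 arrays and the mean cutoff as a dashed line. The 5 Myh1 probe sets all lie above the line, and Myh11, Myo18a, Myo1d and Myo9b have probe sets on both sides of it.

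The 3 arrays agreed closely for the members that were called. With Myh1 included, the SD of their log2 signals had a median of 0.12, from 0.03 to 0.38. The highest was that of Myh1 probe set 1377114_at, and without Myh1 it was 0.29. The median was 0.17 for all called probe sets, although a small spread itself helps a probe set to be called. Judged by level alone, 23 members, Myh1 included, had a mean above the cutoff. Their median SD was 0.20, against 0.18 for all 14330 probe sets with such a mean. Of these 23, 5 or 21.7% had an SD above 0.5 log2 units, against 7.87% of all such probe sets. They were Myl9, Myh11, Myh14 and the 2 dimmer probe sets of Myo5c, none of which was called.

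Among them, Myl9, Myh11 and Myh14 were low on replicate 1. The difference of log2 signal between replicates 2 and 1 was 2.02, 1.02 and 0.99 for Myl9, Myh11 and Myh14, and between replicates 3 and 1 it was 1.44, 1.22 and 0.92. Each array is a single preparation, so these differences have no replicate test. In the same arrays 13 of 17 measured smooth muscle and mural cell genes exceeded their replicate 1 signal on replicate 2, and 12 of 17 did so on replicate 3. With each array centred on its median over genes, these counts were 13 and 11 of 17. For all genes the centred counts were 5759 and 5521 of 14217. Tagln, a defining smooth muscle gene, had 74.3, 632 and 778, and Acta2, the smooth muscle actin, had 497, 996 and 1061. Smtn, for smoothelin, had instead 2009, 1376 and 1375, and Cspg4, of pericytes, had 1173, 902 and 899, both highest on replicate 1. Of the 17 genes 5 were called, led by Mylk (6714 ± 656), Smtn and Cspg4, and this count was 3 without replicate 2 or without replicate 3. The summed signal of the list was 12193, 15726 and 13509 on replicates 1, 2 and 3, of which Mylk gave 6707, 7374 and 6062. The same Mylk probe set is also counted among the regulators of class II myosin below. Cnn1 (101 ± 24.9) and Lmod1 (36.0 ± 19.0) were not called. Endothelial markers exceeded their replicate 1 signal on replicate 2 in 11 of 11 genes and on replicate 3 in 9 of 11, led by Esam (5938 ± 727, lower on replicate 3 than on replicate 1), Plvap (4582 ± 1135) and Emcn (4368 ± 1649), with summed signals of 16324, 28085 and 25337. Replicate 1 was also the lowest array for all 6 thin limb markers (summed signal 29229, 76614 and 44192), all 23 proximal tubule markers and all 6 intercalated cell markers (1506, 3303 and 3858). For fibroblast markers (791, 2026 and 3016) it was exceeded in 6 of 7 genes on each of the other arrays. Not every list was lower on replicate 1. Its signal was exceeded in only 4 of 15 thick limb markers on each other array (summed signal 322281, 317502 and 292245). For podocyte markers it was exceeded in 4 of 7 genes on replicate 2 and 3 of 7 on replicate 3. The control transcripts Dap, Lys, Phe and Thr were lower on replicate 1 in 24 of 24 probe sets, with median ratios of 1.67 for replicate 2 and 1.57 for replicate 3 over replicate 1. The part of these cells and of this difference between the arrays in the Myl9, Myh11 and Myh14 values was not tested. Without replicate 1 all 3 members were called.

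The dimmer Myo5c probe sets were instead low on replicate 3. Their log2 difference between replicates 3 and 2 was -1.19 and -1.45, against -0.44 for the probe set that was called. For Actb, the control at the transcript's 3′ end exceeded the one at its 5′ end by 1.48, 1.18 and 1.95 log2 units on replicates 1, 2 and 3, a gap that is a common measure of RNA quality. For Gapdh it was smaller, at 0.51, 0.43 and 0.60, and also highest on replicate 3. The part of RNA quality in the Myo5c values was not tested.

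**Figure D4:**
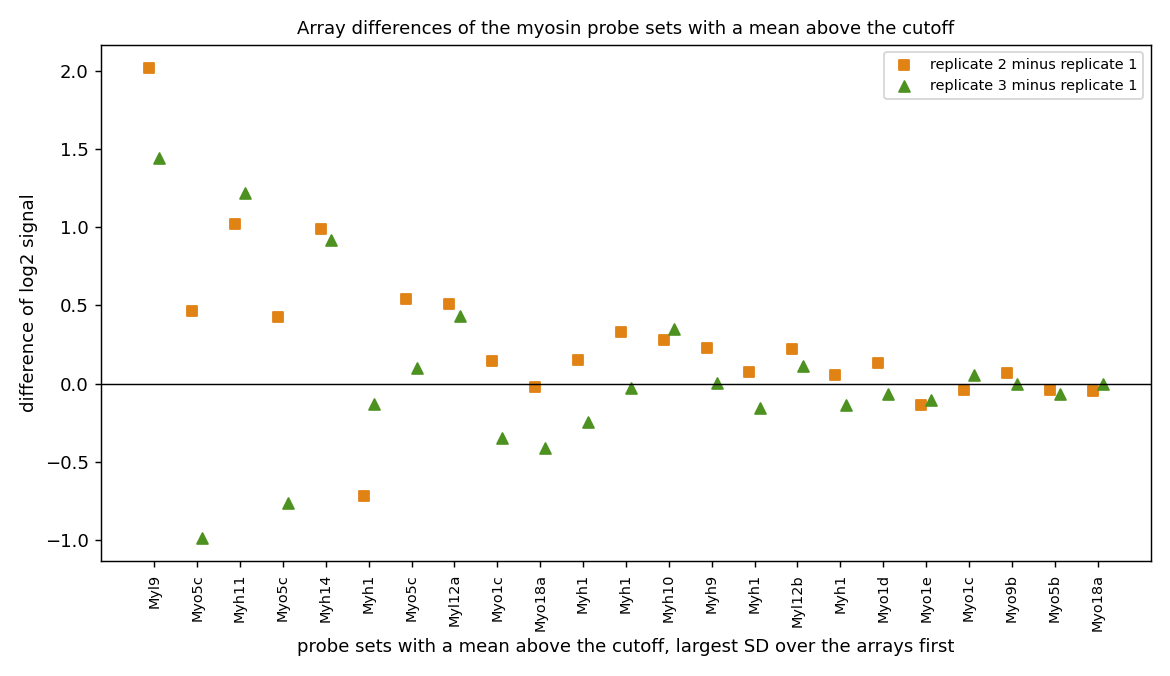
Difference of log2 signal of replicate 2 and of replicate 3 from replicate 1 for the 23 myosin probe sets with a mean above the cutoff, ordered from the largest to the smallest SD. Myl9, Myh11 and Myh14 lie above 0 for both arrays, the dimmer Myo5c probe sets fall to -0.99 and -0.77 on replicate 3, and the right end of the plot, from Myo1d on, stays near 0.

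Most of the listed regulators of class II myosin were called. The list holds enzymes that switch it on and off and also other proteins, such as targeting subunits and chaperones. Of 33 regulators 22, or 66.7%, were called, beside 53.9% of all genes. Their median was 1.61 log2 units above the cutoff, against 1.005 for all genes. The highest signals were those of the GTPase genes Rhob (18299 ± 4080.2) and Rhoa (12728 ± 1305) and of Ppp1cb (16522 ± 1355), the catalytic subunit of myosin phosphatase. Its targeting subunit Ppp1r12a (2004 ± 258), the myosin light chain kinase Mylk and the kinase Rock2 (1024 ± 208) were called. The related kinase Rock1 (206 ± 55.0), the muscle kinase genes Mylk2 (564 ± 277) and Mylk3 (32.1 ± 22.7), the muscle phosphatase subunit Ppp1r12b (43.8 ± 33.8) and the muscle myosin chaperone Unc45b (26.7 ± 11.1) were not, whereas its general relative Unc45a (2220.1 ± 226) was.

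Partners of the unconventional myosins had a median of 2.42 log2 units above the cutoff, against 1.005 for all genes. These partners were called in 22 of 36 genes, or 61.1%, beside 53.9% of all genes. They were led by the calmodulin gene Calm2 (22808 ± 2010.0), which serves as a light chain, by the dynein light chain Dynll2 (11108 ± 776), which also binds class V myosin, and by the membrane linker Ezr (10305 ± 1423). Rab11a (8054 ± 906) and Rab11fip1 (4302 ± 426) of the recycling endosome were called, and Rab11fip2, which binds Myo5b, had 22.4, 349.6 and 246 and was not. Cdhr5 (3679 ± 349), a cadherin of microvilli, was called. Cdhr2 (351 ± 123) and the scaffold Anks4b (221 ± 27.4), among its partners in the complex that holds Myo7b, were not. A further partner, Ush1c, had 479, 524 and 830 and was called (limma adjusted p = 0.042). Of 15 actin, tropomyosin and actin-binding genes 12, or 80%, were called, beside 53.9% of all genes. The brightest were Actg1 (47731 ± 4891), Actn4 (10934 ± 624) and Pfn1 (9053 ± 644). The muscle tropomyosin Tpm2 had 53.8, 403 and 535 and was not called. No test of these lists against other genes was made.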

How the data were processed

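RNA of 3 mTAL preparations (1 group, replicate numbers from the sample titles) was measured on Affymetrix rat arrays, per the labels. The authors deposited linear intensity values, 1 for each probe set on each array; for the summary method, software and normalization, nothing is given in the sources used here. In all, the table held 31099 probe sets, 57 of them controls; of the rest, 20826 had 1 gene in the platform annotation, 436 several and 9780 none. Gene IDs of 50 of the 52 members were found in RefSeq (GRCr8), with the same symbol; those of Myh9 and Myh13 were not. Signals were taken to log2 with no pseudocount. limma 3.58.1 in R 4.3.3 (lmFit, eBayes, one-sided, Benjamini-Hochberg over 31042 probe sets, threshold 0.05) tested log2 signal minus the array's cutoff, and the procedure was checked on simulated data. p-values cover only the spread between the 3 arrays, whose number limits the precision of every value. In lists, each gene was represented by its brightest probe set. The members, lists and tests were chosen with earlier results of these data known. Values on each array are given for Myh1, the 5 brightest probe sets of each family, called members with an SD over 0.5 (there were 0) and genes whose probe sets were called differently, means for other called members, the lowest 2 of each family, and the 3 brightest genes of each list; genes named beyond this were chosen after their values were seen. Alternatives changed the scaling, pseudocount, cutoff, filters, probe sets and replicates.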

Additional observations from a re-analysis of the deposited data

How the results depend on the processing

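The cutoff moved most counts, and the choice of probe sets changed the Myh count only through which probe sets were tested. With Myh1 itself among the other-tissue genes, 9 of 52 myosin probe sets and 2 of 23 Myo probe sets were called, with 1 smooth muscle gene, 6 myosin regulators and 10 myosin partners, and 7.57% of all probe sets. At the 99th percentile 5 Myo probe sets, 1 smooth muscle gene and 10 regulators were called. At the 90th percentile 25 of 52 myosin probe sets were called, 7 of them not called at the 95th, beside 51.4% of all probe sets. There 4 sarcomere genes were called. At the highest TrpnX control, a transcript not added to samples, the counts were 30 myosin and 17 Myo probe sets, 11 sarcomere and 15 smooth muscle genes. With _a_at, _s_at and _x_at probe sets left out 4 of 15 Myh probe sets were called, and with 1 probe set per gene 3 of 12. The called Myh probe sets left out were all of Myh1, and no tested myosin probe set changed its call. The log2 signal minus the cutoff fell to -0.38 for Myh10, -0.63 for Myo5c, -0.99 for Myo18a and -1.15 for Myo9b with Myh1 in the list, and at the 99th percentile to -0.13 for Myo5c, -0.50 for Myo18a and -0.65 for Myo9b. Leaving out 1 replicate gave 18 to 21 myosin probe sets and 3 to 6 smooth muscle genes. Without probe sets of a mean signal under 100, 20 of 30 myosin probe sets were called, beside 60.1% of those tested. Myl9 and Myh14 were then called. Over the alternatives Myl9 and Myh14 were each called in 4, and Myh11 probe set 1370896_a_at in 3. Quantile normalization and a pseudocount of 16 gave the same 18 calls. Scaling to a common 75th percentile shifts an array and its cutoff alike, so it could not change a call and shows nothing about stability. It is 1 of the 14 alternatives counted next. Across all 14 alternatives, 9 probe sets were called in each that tested them and 22 in none. Besides Myh9, Myl12a, Myl12b, Myo1c 1369631_at and Myo1d 1388917_at, the 9 were the Myh1 probe sets other than 1377114_at. The Myh1 probe sets also count in the myosin and Myh totals given here, and nothing is read from their part. No paired analysis was possible because there is only 1 group. The unknown summary method and the 3 arrays limit what signals below the cutoff can show.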

Other observations

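Myosins whose names carry no letter, and probe sets annotated to several gene entries, were not counted as members and are given here as values. Myo6, which moves towards the minus end of actin and takes part in endocytosis at the base of microvilli, had signals of 4168, 3645 and 4148 (3987 ± 296) on 1 probe set and 3498, 3895 and 3261 (3551 ± 319.96) on the other, and both were called. Myo10, of filopodia, had 1317, 1059 and 1024 (1133 ± 160.04) on a called probe set and 373, 362 and 292 (342 ± 43.9) on one that was not. Myo16, known from brain, had means of 15.95 and 8.50 and was not called. A probe set annotated to a pair of gene entries that both carry the symbol Myh9 had 1263, 1247 and 706 (1072 ± 317) and was called, lower on each array than the Myh9 member. It was left out of the members for its 2 entries, although it names no other gene symbol. A probe set that the annotation gives to Myl6, Myl6b and a further entry, the essential light chains of nonmuscle and smooth muscle, had 23699.5, 25655 and 24976 (24777 ± 993) and was called. Both probe sets shared by the cardiac chains Myh6 and Myh7 were not called, with means of 44.9 and 81.1.

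Markers of further kidney and blood cells on the same arrays were led by Cryab (19659 ± 6806), Aqp1 (17342 ± 10681) and Fst (5326 ± 2836) of the thin limb, with 5 of 6 called, and by Tfcp2l1, Aqp2 and Avpr2 of principal cells, with 5 of 11. Podocyte markers, for which Myo1e is known, had 3 of 7 called, led by Podxl (1432 ± 348), Cdkn1c (1232 ± 347) and Plce1 (729 ± 109.7), and their part in the Myo1e signal was not tested. Of 3 red cell markers 1 was called, with Hbb, Alas2 and Epb42 in that order. By limma 0 of 6 intercalated cell markers (led by Atp6v1g3, Rhcg and Slc4a1) were called. Atp6v1g3 (415, 1391 and 1473) and Rhcg (413, 545 and 826) still lay above the cutoff on every array, and the other intercalated cell markers did not. Nor were any called of 7 distal convoluted tubule (Slc12a3, Trpv5 and Slc8a1) and 7 fibroblast markers (Col3a1, Col1a2 and Dcn).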
